A study of Mus musculus with 6 samples.

Results

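The insulin-like growth factor (IGF) family was followed through the conversion of mouse fat precursors into beige adipocytes, the heat-producing fat cells that can arise in white fat. Its 10 members were the ligands Igf1 and Igf2, the receptors Igf1r and Igf2r, and the binding proteins Igfbp2, Igfbp3, Igfbp4, Igfbp5, Igfbp6 and Igfbp7. They were taken by gene symbol from a count table of 45808 gene lines, where each symbol had 1 line, and all 10 passed the filter on low counts. The cultures were stromal-vascular cells, the fraction of fat tissue that holds adipocyte precursors. They came from the inguinal depot of male mice aged 8 weeks, and all libraries are labelled WT (wild-type).

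The groups were confluent cells before induction (day 0), cells after 2 days of induction (day 2) and cells kept in maintenance medium until day 6. Induction medium contained IBMX at 0.5 mM, which raises cyclic AMP, the glucocorticoid dexamethasone at 5 µM and indomethacin at 125 µM. It also contained insulin at 850 nM, T3 (a thyroid hormone) at 1 nM and the PPAR gamma agonist rosiglitazone at 1 µM, and maintenance medium kept these last 3 at the same doses. Each day had 2 libraries, numbered 76 and 77, which the series design calls biological replicates. Separate mice or separate cultures are not stated in the sources used here. The p-values therefore measure only the spread between libraries, which may be technical.

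IGF1 and IGF2 act mainly through the IGF1 receptor, a tyrosine kinase closely related to the insulin receptor that also forms mixed dimers with it. Insulin at high concentration can bind the IGF1 receptor too. The IGF2 receptor clears IGF2 and carries enzymes tagged with mannose phosphate to lysosomes. The binding proteins hold IGFs outside the cell, prolong their life and limit or deliver them to receptors, and proteases such as PAPP-A release the ligand by cutting them. In fat, precursor cells respond to IGFs and to insulin, and insulin is the main signal for fat storage in mature adipocytes.

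Promoters are shown for 3 binding proteins that took different courses. Igfbp5 fell by the largest fold, Igfbp4 fell from the highest CPM, and Igfbp3 ended above its starting level. Each window runs from 250 bases before to 50 bases after a gene's start, 5′ to 3′, from RefSeq on GRCm38.p6. Capitals mark an AT-rich string shortly before the start.
Igfbp5 (chr1:72874816-72875115, minus strand): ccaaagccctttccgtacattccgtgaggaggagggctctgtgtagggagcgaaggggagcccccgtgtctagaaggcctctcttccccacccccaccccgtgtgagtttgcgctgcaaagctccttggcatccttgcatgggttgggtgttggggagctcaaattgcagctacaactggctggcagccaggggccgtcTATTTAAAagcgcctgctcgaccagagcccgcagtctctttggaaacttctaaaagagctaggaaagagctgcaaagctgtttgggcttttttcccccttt
Igfbp4 (chr11:99040994-99041293, plus strand): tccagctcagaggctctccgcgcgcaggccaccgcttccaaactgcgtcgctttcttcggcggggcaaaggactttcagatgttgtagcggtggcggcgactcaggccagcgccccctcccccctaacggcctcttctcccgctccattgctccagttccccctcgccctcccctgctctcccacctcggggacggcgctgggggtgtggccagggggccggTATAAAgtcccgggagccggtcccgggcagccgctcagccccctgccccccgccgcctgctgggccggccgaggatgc
Igfbp3 (chr11:7213874-7214173, minus strand): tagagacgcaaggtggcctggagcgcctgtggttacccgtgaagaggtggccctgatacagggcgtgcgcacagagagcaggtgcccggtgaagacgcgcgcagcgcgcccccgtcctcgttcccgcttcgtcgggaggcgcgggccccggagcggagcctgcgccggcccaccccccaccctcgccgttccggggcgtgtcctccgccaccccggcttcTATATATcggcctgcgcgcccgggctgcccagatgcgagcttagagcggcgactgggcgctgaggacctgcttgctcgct

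The marked strings begin 51 bases (TATTTAAA, Igfbp5), 28 bases (TATAAA, Igfbp4) and 30 bases (TATATAT, Igfbp3) before the start. For Igfbp5 this RefSeq start lies downstream of the gene's 5′ end in GENCODE M21 (72874884), to which the string lies closer. On either strand, TATAAA occurs in 13.6% of the 32851 RefSeq windows of this length, TATTTAAA in 1.81% and TATATAT in 2.98%. The strings TATTTAAA and TATATAT were chosen after the windows had been read. All 10 members had a window, 14 in all, and TATAAA was also in that of Igfbp6.

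Strings tied to hormones or to fat cell regulators were searched as well, on both strands, and no string searched contains another. The cyclic AMP response element TGACGTCA (1.79% of all windows) and the C/EBP string TTGCNNAA (10.8%) were in none of the 14 windows. The glucocorticoid receptor half-site TGTTCT (18.97%) was in windows of Igf2 and Igfbp2. The nuclear receptor half-site AGGTCA (16.3%) was in windows of Igf1, Igf2, Igf1r and Igf2r, and CCAAT (37.4%) in windows of Igf1, Igf2 and Igfbp6. A match describes the letters of a window and is not a site.

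The libraries held 22522221 to 29458374 counts in genes. Levels are CPM, with library sizes adjusted by TMM factors, given for replicate 76 and then 77, or as mean ± SD with n = 2 libraries per day. Changes are log2 changes from edgeR's quasi-likelihood test over the 14459 genes tested, called at an adjusted p under 0.05. The sums of adipocyte and progenitor markers moved as the labels describe the culture. The sum of 6 adipocyte markers was 86.4 and 106 CPM in the day 0 libraries, 4108 and 3819 CPM in those of day 2 and 31629.7 and 26038 CPM in those of day 6, and each marker was higher in each of the 3 comparisons. The sum of 7 progenitor markers was 1654 and 1772 CPM in the day 0 libraries, 1167 and 1405 CPM in those of day 2 and 666 and 1000.3 CPM in those of day 6. Against day 0, 5 of the 7 were called lower at day 2 and 6 at day 6, and 0 higher. Among all genes tested, 33.6% were lower at day 2 and 35.1% at day 6 against day 0. The shares called higher were 33.6% and 35.9% on those days, and 38.2% at day 6 against day 2. The means of Ly6a (560 to 652 CPM) and Pi16 (16.5 to 20.5 CPM) rose from day 0 to day 2. Markers of mesothelial, Schwann, skeletal muscle, lymphocyte and liver cells summed to 12.1 CPM or less per cell type in every library, with Cd3e and Ttr at 0 throughout. Replicate 77 of day 6 had more progenitor and less adipocyte marker RNA than replicate 76 of that day. Fewer cells of a type and less RNA per cell cannot be told apart in these bulk libraries.

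All 10 members differed between at least 2 of the days (joint F test, adjusted p under 0.05), where 84.8% of all genes tested did. At day 2 against day 0, 9 members were lower and Igf1 was higher, where 33.6% of all genes were lower, 33.6% higher and 67.1% called in either direction. At day 6 against day 0, 8 were lower and 2 higher, Igf1 and Igfbp3, where 35.1% of all genes were lower, 35.9% higher and 70.9% called. Without replicate 76 of day 0 or 77 of day 2, 6 members were called lower at day 2 against day 0. Without replicate 77 of day 0, 1 member, Igf1, was called higher at day 6 against day 0. At day 6 against day 2, 4 were lower, 3 higher (Igfbp2, Igfbp3 and Igfbp6) and 3 not called (Igf1, Igf2 and Igfbp7), where 27.5% of all genes were lower, 38.2% higher and 65.7% called. The median log2 change of the members was -0.72, -1.16 and -0.32 in these comparisons, beside 0.00, -0.01 and 0.12 for all genes tested. The comparisons share libraries, so their counts are not independent. The members held 0.438% and 0.453% of a library's counts at day 0, 0.287% and 0.286% by day 2, and 0.117% and 0.138% by day 6.

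**Figure D1:**
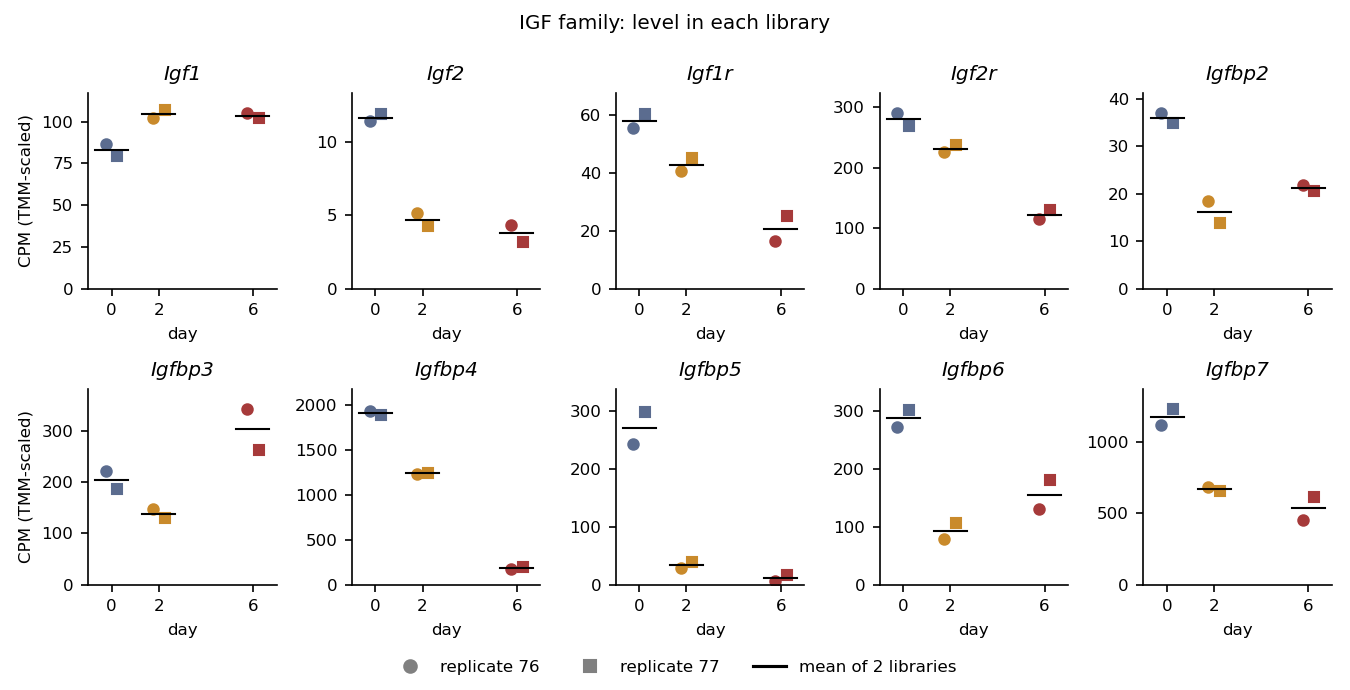
Level of each family member in CPM (vertical axes, from 0) against day (horizontal axes), with 1 point per library (circle, replicate 76; square, replicate 77) and a bar at the mean of both. Igfbp4 stands between 1887 and 1932 CPM at day 0 and between 176 and 191 CPM at day 6, while Igf1 stays within 79.7 to 107 CPM throughout.

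Small changes depended on scaling. With library totals alone in place of TMM, the median log2 change of all genes was 0.12 in place of 0.00 at day 2 against day 0, -0.26 in place of -0.01 at day 6 against day 0, and -0.23 in place of 0.12 at day 6 against day 2. Of the genes called, 38.0% in place of 50.6% were then higher at day 6 against day 0, and 37.1% in place of 58.1% at day 6 against day 2. Under that scaling 0 members were called higher at day 6 against day 0, and at day 6 against day 2 there were 1 higher and 7 lower.

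Igf1, the ligand that growth hormone drives in many tissues, lies on chromosome 10 from 87858265 to 87937042 (plus strand) in GRCm38, the build of all positions given here. It had 86.6 and 79.7 CPM at day 0, 102 and 107 CPM at day 2 and 105 and 102 CPM at day 6. Both later days lay above day 0 and overlapped each other. Igf1 was 1.26-fold higher at day 2 (log2 change 0.33, SE 0.07, adjusted p = 0.00311) and 1.25-fold higher at day 6 (log2 change 0.32, SE 0.07, adjusted p = 0.00368) than at day 0. Days 6 and 2 were not told apart by the test (log2 change -0.01, SE 0.07, adjusted p = 0.871). With library totals alone, the change at day 6 against day 0 was 0.07 beside a median of -0.26 for all genes, and was not called (adjusted p = 0.392). Over all alternatives its adjusted p ran from 0.00108 to 0.392. Under the same scaling day 6 was called lower than day 2 (log2 change -0.37, adjusted p = 0.00174; alternatives 0.00174 to 0.979).

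Macrophages also make IGF1 in fat, and their markers were measured beside it. The sum of 9 macrophage markers was 50.7 and 43.6 CPM in the day 0 libraries, 65.0 and 32.5 CPM in those of day 2 and 149 and 59.1 CPM in those of day 6. Of the 9, 6 were called higher at day 6 against day 0 and 4 at day 6 against day 2. At day 2 against day 0, 1 was lower. Among all genes tested, 35.9%, 38.2% and 33.6% were called in these directions. None of the 9 was at 0 in all libraries. In the day 6 libraries Igf1 had 105 and 102 CPM. The part of macrophage RNA in the Igf1 result was not tested.

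Igf2, the fetal growth ligand expressed from the paternal allele, lies on chromosome 7 from 142650766 to 142666816 (minus strand). It had 11.4 and 11.9 CPM at day 0, 5.13 and 4.28 CPM at day 2 and 4.33 and 3.19 CPM at day 6. Both later days lay below day 0 and overlapped each other. Igf2 fell 2.47-fold by day 2 (log2 change -1.30, SE 0.17, adjusted p = 0.000203) and 3.08-fold by day 6 (log2 change -1.62, SE 0.18, adjusted p = 6.54e-05). The step between days 6 and 2 was not called (log2 change -0.32, SE 0.19, adjusted p = 0.176). It was called when replicate 76 of day 6 was left out (adjusted p = 0.0426) and with library totals alone (adjusted p = 0.0114; alternatives 0.0114 to 0.617). In GENCODE M21, 62.8% of the exonic length of Igf2 overlaps Gm49394 on the same strand, and 75.95% of its 50-mers occur there. The count table has no line for Gm49394, and reads of both genes in the overlap cannot be told apart.

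Per kilobase of exon, Igf1 stood at 8.39 ± 0.492 CPM per kb at day 0, 10.6 ± 0.349 at day 2 and 10.5 ± 0.176 at day 6. Igf2 stood at 2.03 ± 0.0632 CPM per kb at day 0, 0.822 ± 0.105 at day 2 and 0.657 ± 0.141 at day 6. The ratio of Igf2 to Igf1 on this scale was 0.228 and 0.258 in the day 0 libraries, 0.0869 and 0.0692 in those of day 2 and 0.0715 and 0.0539 in those of day 6. Igf1 was the more abundant ligand mRNA in every library. Both ligands together stood at 10.4 ± 0.429 CPM per kb at day 0, 11.4 ± 0.243 at day 2 and 11.1 ± 0.317 at day 6.

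**Figure D2:**
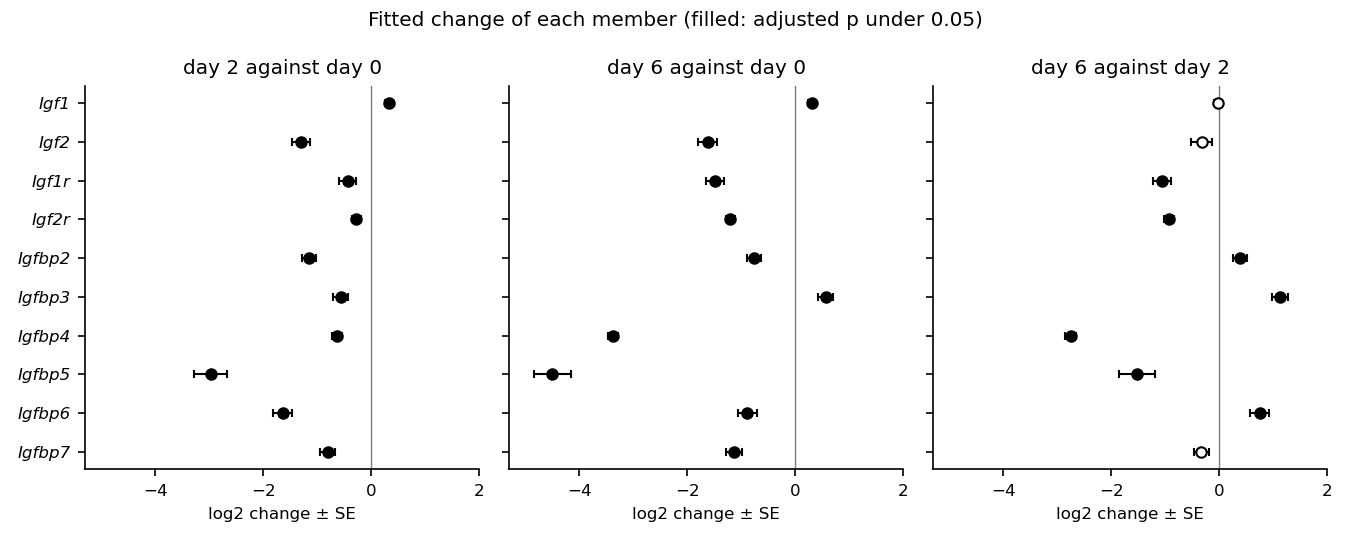
Log2 change of each member (horizontal axis, with SE from the edgeR fit) in the 3 comparisons, filled where the adjusted p was under 0.05. Igfbp5 and Igfbp4 lie farthest to the left at day 6 against day 0, at -4.50 and -3.38, and Igf1 lies at 0.33 and 0.32 in the comparisons with day 0.

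Igf1r, the signalling receptor, lies on chromosome 7 from 67952827 to 68233668 (plus strand). It had 55.7 and 60.5 CPM at day 0, 40.6 and 45.3 CPM at day 2 and 16.4 and 25.2 CPM at day 6. The days did not overlap, and each later day was lower. At day 6 Igf1r was 2.80-fold lower than at day 0 (log2 change -1.49, SE 0.17, adjusted p = 7.47e-05) and 2.07-fold lower than at day 2 (log2 change -1.05, SE 0.17, adjusted p = 0.000703). The smaller step at day 2 against day 0 (log2 change -0.43, SE 0.16, adjusted p = 0.0382) was not called by DESeq2 (adjusted p = 0.0573) or with library totals alone (adjusted p = 0.134). Leaving out any 1 library of those days also ended that call, at log2 changes from -0.50 to -0.23. Its adjusted p was then 0.0815 and 0.377 for replicates 76 and 77 of day 0, and 0.198 and 0.0829 for those of day 2 (alternatives 2.75e-05 to 0.377). At day 6 the library with more Igf1r, replicate 77, was the one with more progenitor marker RNA, whose part in the fall was not tested.

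Igf2r, the receptor that clears IGF2, lies on chromosome 17 from 12682406 to 12769664 (minus strand). It had 291 and 268 CPM at day 0, 226 and 237 CPM at day 2 and 114 and 129.5 CPM at day 6. Again the days did not overlap, and each later day was lower. At day 6 Igf2r was 2.29-fold lower than at day 0 (log2 change -1.20, SE 0.09, adjusted p = 5.99e-06) and 1.90-fold lower than at day 2 (log2 change -0.92, SE 0.09, adjusted p = 3.19e-05). The step at day 2 against day 0 (log2 change -0.27, SE 0.09, adjusted p = 0.0218) was not called with library totals alone (adjusted p = 0.177). Leaving out any 1 library of those days ended the call too, at log2 changes from -0.29 to -0.18. Its adjusted p was then 0.155 and 0.212 for replicates 76 and 77 of day 0, and 0.140 and 0.0715 for those of day 2 (alternatives 0.00415 to 0.212).

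M6pr, the other receptor for mannose phosphate tags, had 121 ± 1.66 CPM at day 0, 161 ± 3.796 CPM at day 2 and 126 ± 7.81 CPM at day 6. It was higher at day 2 than at day 0 (log2 change 0.41, SE 0.07, adjusted p = 0.00117) and lower at day 6 than at day 2 (log2 change -0.36, SE 0.07, adjusted p = 0.00265). Airn, the noncoding RNA transcribed across part of Igf2r from the other strand, had 1.56 ± 0.0463 CPM at day 0, 1.11 ± 0.153 CPM at day 2 and 1.24 ± 0.363 CPM at day 6.

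The insulin receptor gene Insr, which is not among the 10 members, moved the other way from Igf1r. Insr had 53.7 and 53.3 CPM at day 0, 129 and 127 CPM at day 2 and 267 and 247 CPM at day 6. It was 2.39-fold higher at day 2 (log2 change 1.26, SE 0.07, adjusted p = 2.8e-06) and 4.81-fold higher at day 6 (log2 change 2.27, SE 0.07, adjusted p = 6.93e-08) than at day 0. Per kilobase of exon, Igf1r stood at 3.46 ± 0.202 CPM per kb at day 0, 2.56 ± 0.201 at day 2 and 1.24 ± 0.368 at day 6. Insr stood at 3.89 ± 0.0192 CPM per kb at day 0, 9.30 ± 0.116 at day 2 and 18.7 ± 1.03 at day 6. The ratio of Igf1r to Insr on this scale was 0.849 and 0.929 in the day 0 libraries, 0.258 and 0.293 in those of day 2 and 0.0503 and 0.0833 in those of day 6. The mRNAs were thus close in level before induction, and Insr was the more abundant in every library. No test was run on the ratio.

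**Figure D3:**
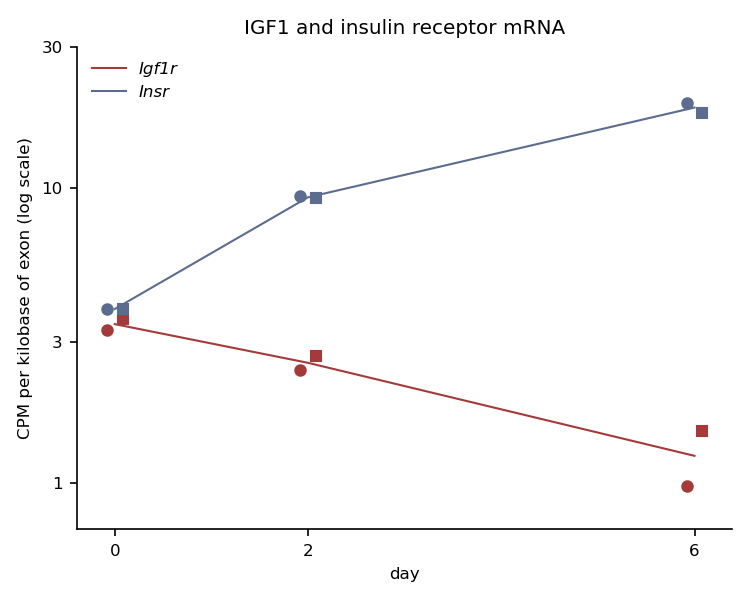
Igf1r and Insr mRNA in CPM per kilobase of exon (vertical axis, log scale) against day, with 1 point per library (circle, replicate 76; square, replicate 77) and lines through the means. The lines lie near each other at day 0, at means of 3.46 and 3.89, and part by day 6, to 1.24 for Igf1r and 18.7 for Insr.

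Igfbp4 and Igfbp5 had the largest falls of the family. Igfbp4, a mostly inhibitory binding protein that PAPP-A cleaves, lies on chromosome 11 from 99041244 to 99054392 (plus strand). It had 1932 and 1887 CPM at day 0, 1235 and 1239.9 CPM at day 2 and 176 and 191 CPM at day 6. The libraries of a day were close to each other and far from those of other days. Igfbp4 was 1.54-fold lower at day 2 (log2 change -0.63, SE 0.09, adjusted p = 0.000348) and 10.4-fold lower at day 6 (log2 change -3.38, SE 0.10, adjusted p = 4.21e-08) than at day 0. Most of the fall came between days 2 and 6, and day 6 was 6.74-fold lower than day 2 (log2 change -2.75, SE 0.10, adjusted p = 2.61e-07).

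Igfbp5, a binding protein that also attaches to extracellular matrix, lies on chromosome 1 from 72857932 to 72874884 (minus strand). Its 3′ end faces that of Igfbp2 across 5457 bases. It had 243 and 299.6 CPM at day 0, 29.4 and 39.5 CPM at day 2 and 7.01 and 17.1 CPM at day 6, with no overlap between days. In contrast to Igfbp4, Igfbp5 lost most by day 2, 7.88-fold lower than at day 0 (log2 change -2.98, SE 0.30, adjusted p = 5.06e-05). It was a further 2.88-fold lower at day 6 than at day 2 (log2 change -1.53, SE 0.33, adjusted p = 0.00364), and 22.7-fold lower at day 6 than at day 0 (log2 change -4.50, SE 0.34, adjusted p = 6.8e-06). The day 6 level rests on libraries that lay apart. Without replicate 77 of day 6, the one with more progenitor marker RNA, the log2 change was -5.26 against day 0 and -2.29 against day 2. Over all fits that leave out 1 library, it ran from -5.26 to -3.98 against day 0 and from -2.29 to -1.01 against day 2.

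Igfbp6 and Igfbp2 were lowest at day 2 and lay between that level and day 0 at day 6. Igfbp6, which prefers IGF2 over IGF1, lies on chromosome 15 from 102144362 to 102149511 (plus strand). It had 272 and 302 CPM at day 0, 78.2 and 106 CPM at day 2 and 131 and 179.5 CPM at day 6. The days did not overlap. Igfbp6 was 3.12-fold lower at day 2 than at day 0 (log2 change -1.64, SE 0.18, adjusted p = 7.02e-05). At day 6 it was 1.69-fold higher than at day 2 (log2 change 0.75, SE 0.18, adjusted p = 0.00528) and 1.85-fold lower than at day 0 (log2 change -0.89, SE 0.17, adjusted p = 0.00190). The higher level at day 6 than at day 2 was not called with library totals alone (adjusted p = 0.0908; alternatives 1.15e-14 to 0.0908).

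Igfbp2, a binding protein that can also bind integrins, lies on chromosome 1 from 72824503 to 72852474 (plus strand). It had 37.0 and 34.8 CPM at day 0, 18.5 and 13.8 CPM at day 2 and 21.8 and 20.5 CPM at day 6, with no overlap between days. Igfbp2 was 2.23-fold lower at day 2 (log2 change -1.16, SE 0.13, adjusted p = 9.12e-05) and 1.70-fold lower at day 6 (log2 change -0.76, SE 0.13, adjusted p = 0.000873) than at day 0. Its higher level at day 6 than at day 2 (log2 change 0.39, SE 0.14, adjusted p = 0.0318) was called in 4 of 12 alternatives (adjusted p 0.00197 to 0.845). The call ended with RLE scaling (adjusted p = 0.0684), library totals (0.845), DESeq2 (0.0988) and a fit of days 2 and 6 alone (0.181). It also ended without replicate 76 of day 0 (0.0524), 77 of day 0 (0.188), 77 of day 2 (0.193) or 76 of day 6 (0.0835).

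Igfbp3, the main carrier of IGFs in serum, was the only binding protein of the family called higher at day 6 than at day 0. It lies on chromosome 11 from 7206086 to 7213923 (minus strand), 3539 bases from Igfbp1, a liver binding protein with 0 counts in all 6 libraries. A count of 0 allows up to 3 counts, or 0.0993 to 0.150 CPM in these libraries. Igfbp3 had 221 and 187 CPM at day 0, 147 and 129 CPM at day 2 and 343 and 263 CPM at day 6. The days did not overlap, and day 2 was lowest. At day 6 Igfbp3 was 2.20-fold higher than at day 2 (log2 change 1.13, SE 0.14, adjusted p = 0.000154) and 1.48-fold higher than at day 0 (log2 change 0.57, SE 0.14, adjusted p = 0.00614). The change against day 0 was not called with library totals alone (adjusted p = 0.0546) or when replicate 77 of day 0 was left out (adjusted p = 0.0565; alternatives 3.38e-09 to 0.0565). At day 2 Igfbp3 was 1.48-fold lower than at day 0 (log2 change -0.57, SE 0.14, adjusted p = 0.00705), a call that ended when replicate 76 of day 0 was dropped (adjusted p = 0.0617) or 77 of day 2 was (adjusted p = 0.0695; alternatives 1.63e-08 to 0.0695). Its level was higher in replicate 76 on every day. That replicate had more adipocyte marker RNA at days 2 and 6 but less at day 0 (86.4 against 106 CPM). It also had more macrophage marker RNA on every day, with 149 against 59.1 CPM at day 6. The part of either cell type in the result was not tested.

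Igfbp7, a secreted relative that binds IGFs weakly and is abundant in vessel walls, lies on chromosome 5 from 77349240 to 77408041 (minus strand). Of its exonic length, 7.03% overlaps Polr2b on the other strand. It had 1118 and 1232 CPM at day 0, 686 and 659 CPM at day 2 and 455 and 617 CPM at day 6, with no overlap between days. Igfbp7 was 1.75-fold lower at day 2 (log2 change -0.80, SE 0.14, adjusted p = 0.00110) and 2.19-fold lower at day 6 (log2 change -1.13, SE 0.14, adjusted p = 0.000135) than at day 0. The step between days 6 and 2 was not called (log2 change -0.33, SE 0.14, adjusted p = 0.0692; alternatives 0.000329 to 0.256). With the replicate number as a block it was called (log2 change -0.34, adjusted p = 0.0368). It was also called with RLE scaling (adjusted p = 0.0313), library totals (0.00561), DESeq2 (0.0120), no filter (0.00113) and days 2 and 6 alone (0.0297). Leaving out replicate 77 of day 0 (0.0308) or 77 of day 6 (0.000329) had the same effect.

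The sums of vessel cell markers were lower at day 2 than at day 0, as was Igfbp7. From day 2 to day 6 both sums rose, though not every marker in them did. The sum of 6 endothelial markers was 33.6 and 29.6 CPM in the day 0 libraries, 6.25 and 6.18 CPM in those of day 2 and 11.97 and 15.5 CPM in those of day 6. All 5 that were tested were lower at each later day than at day 0. At day 6 against day 2, 1 was higher and 1 lower. The mean of Tek went from 1.67 to 9.60 CPM between those days, and that of Cdh5 from 1.99 to 1.20 CPM. The sum of 7 mural cell markers was 146 and 147 CPM in the day 0 libraries, 42.0 and 38.8 CPM in those of day 2 and 120.5 and 124 CPM in those of day 6. Of these, 6 were lower at day 2 than at day 0, and at day 6 5 were lower and 2 higher than at day 0. At day 6 against day 2, 4 were higher and 2 lower. Among all genes tested, 33.6% were lower at day 2 than at day 0, and at day 6 35.1% were lower and 35.9% higher. At day 6 against day 2, 38.2% were higher and 27.5% lower. No marker of either list was at 0 in all libraries, and their part in the Igfbp7 result was not tested.

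Per kilobase of exon, the 6 binding proteins together stood at 1737 and 1847 in the day 0 libraries, 979 and 976 in those of day 2 and 656 and 813 in those of day 6, in CPM per kb. Igfbp7 was the largest part in every library, at 54.2% ± 1.41 of the sum at day 0, 56.9% ± 1.49 at day 2 and 60.1% ± 3.84 at day 6. Igfbp4 held 24.2% ± 1.44 at day 0, 28.7% ± 0.142 at day 2 and 5.70% ± 0.517 at day 6, and ranked next at days 0 and 2. Igfbp6 held 14.4% ± 0.445, 8.46% ± 1.81 and 18.9% ± 1.37 on those days, and Igfbp3 3.65% ± 0.582, 4.51% ± 0.405 and 13.5% ± 4.51. By day 6 Igfbp6 and Igfbp3 had thus each passed Igfbp4. Igfbp5 held 2.52% ± 0.264, 0.587% ± 0.123 and 0.265% ± 0.123, and Igfbp2 1.09% ± 0.0933, 0.892% ± 0.181 and 1.58% ± 0.309. These shares are descriptions with no test.

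**Figure D4:**
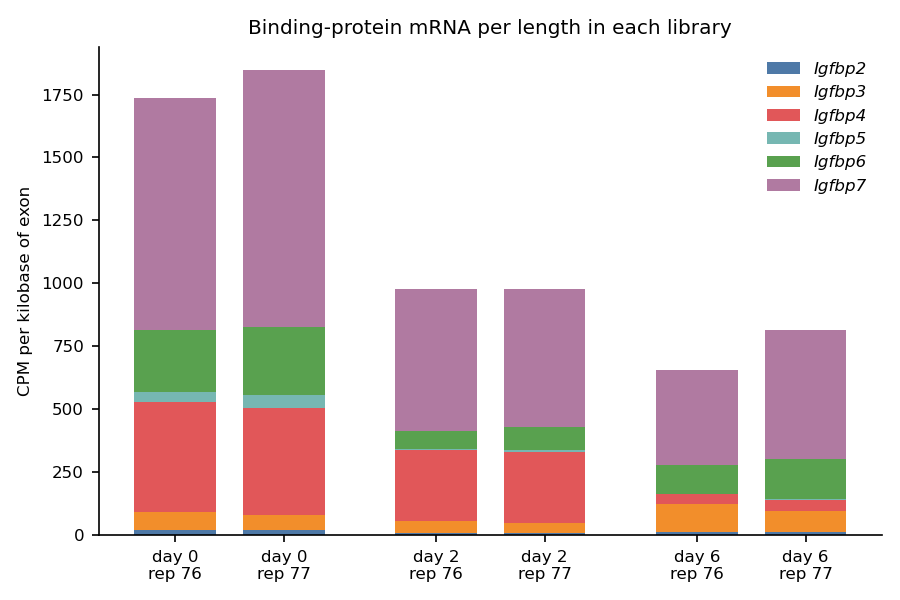
Binding-protein mRNA in CPM per kilobase of exon (vertical axis) in each library, stacked by gene. The bars reach 1737 and 1847 in the day 0 libraries, 979 and 976 in those of day 2 and 656 and 813 in those of day 6, and the Igfbp4 part is large at days 0 and 2 and small at day 6.

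The family spanned a wide range of levels per length. Among the 13797 tested genes with an exon length (95.4% of those tested), Igfbp7 ranked 18 and 20 in the day 0 libraries, 41 and 45 in those of day 2 and 71 and 123 in those of day 6, rank 1 being the most abundant gene. Igfbp4 ranked 63 and 65, then 126 and 128, then 1187 and 1315. At day 0 the order from the most to the least abundant was Igfbp7, Igfbp4, Igfbp6, Igfbp3, Igfbp5, Igf2r, Igfbp2, Igf1, Igf1r and Igf2. At day 6 it was Igfbp7 (443 ± 94.7 CPM per kb), Igfbp6 (139.5 ± 31.01), Igfbp3 (96.8 ± 18.1), Igfbp4 (41.6 ± 2.51), Igf2r (13.1 ± 1.14), Igfbp2 (11.5 ± 0.516), Igf1 (10.5 ± 0.176), Igfbp5 (2.01 ± 1.19), Igf1r (1.24 ± 0.368) and Igf2 (0.657 ± 0.141). The libraries of neighbours in these orders overlapped only for Igfbp5 and Igf1r at day 6.

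The profiles nearest to each member were sought among 12993 other tested genes, by the root mean square distance of centred log2 CPM over the 6 libraries. For Igf1 they were Dr1 (distance 0.0240), a general repressor of transcription, and Snrnp200 (0.0331), a spliceosome helicase. For Igf2 they were Pik3cd (0.106), a catalytic subunit of phosphoinositide kinase, and Mboat1 (0.151), an acyltransferase of membrane lipids. For Igf1r they were the membrane proteins Flrt2 (0.0675) and Lrfn1 (0.0741). For Igf2r they were the fibroblast growth factor receptor Fgfr1 (0.0549) and the peroxiredoxin Prdx4 (0.0586). Igfbp6 was nearest to the laminin chain Lamb2 (0.0395) and to Gulp1 (0.0626), an engulfment adaptor. Igfbp2 was nearest to Ppapdc3 (0.0831) and Ppp1r13l (0.0845), and Igfbp3 to Rhbdd3 (0.0807) and Rabl3 (0.0863). Igfbp7 was nearest to the adhesion protein Pvrl3 (0.0610) and the G protein gene Gnas (0.0704). As with Igf2, the neighbours of Igfbp4 and Igfbp5 were looser than those of the other members. They were the potassium channel subunit Abcc9 (0.148), which is also on the mural marker list, and the collagen Col3a1 (0.198) for Igfbp4, and, for Igfbp5, the neurotrophin receptor Ngfr (0.214). Within the family the closest pair was Igf1r and Igf2r (0.193).

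Another 31 genes of the pathway were followed as a list, of which 28 were tested. At day 2 against day 0, 7 were higher and 18 lower, with a median log2 change of -0.56. At day 6 against day 0, 6 were higher and 15 lower (median -0.47), and at day 6 against day 2, 12 were higher and 9 lower (median 0.03). The shares and medians of all genes are those given with the members. Those shares are also the ones to set beside the groups within this list. Of the untested genes, Ins2 and Igfbp1 had 0 counts in every library and Igfbpl1 had 1 count in all. Igfals, which holds IGFs and Igfbp3 in a serum complex, had 1.27 ± 0.299 CPM at day 0, 0.265 ± 0.134 CPM at day 2 and 1.37 ± 0.460 CPM at day 6, and was lower at day 2 than at day 0 (log2 change -2.24, SE 0.48, adjusted p = 0.00324) and higher at day 6 than at day 2 (log2 change 2.37, SE 0.48, adjusted p = 0.00262). Its day 2 libraries held only 5 and 10 counts. Without replicate 77 of day 2 those log2 changes were -2.84 and 2.98. Over all alternatives they ran from -2.84 to -1.79 and from 1.92 to 2.98.

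**Figure D5:**
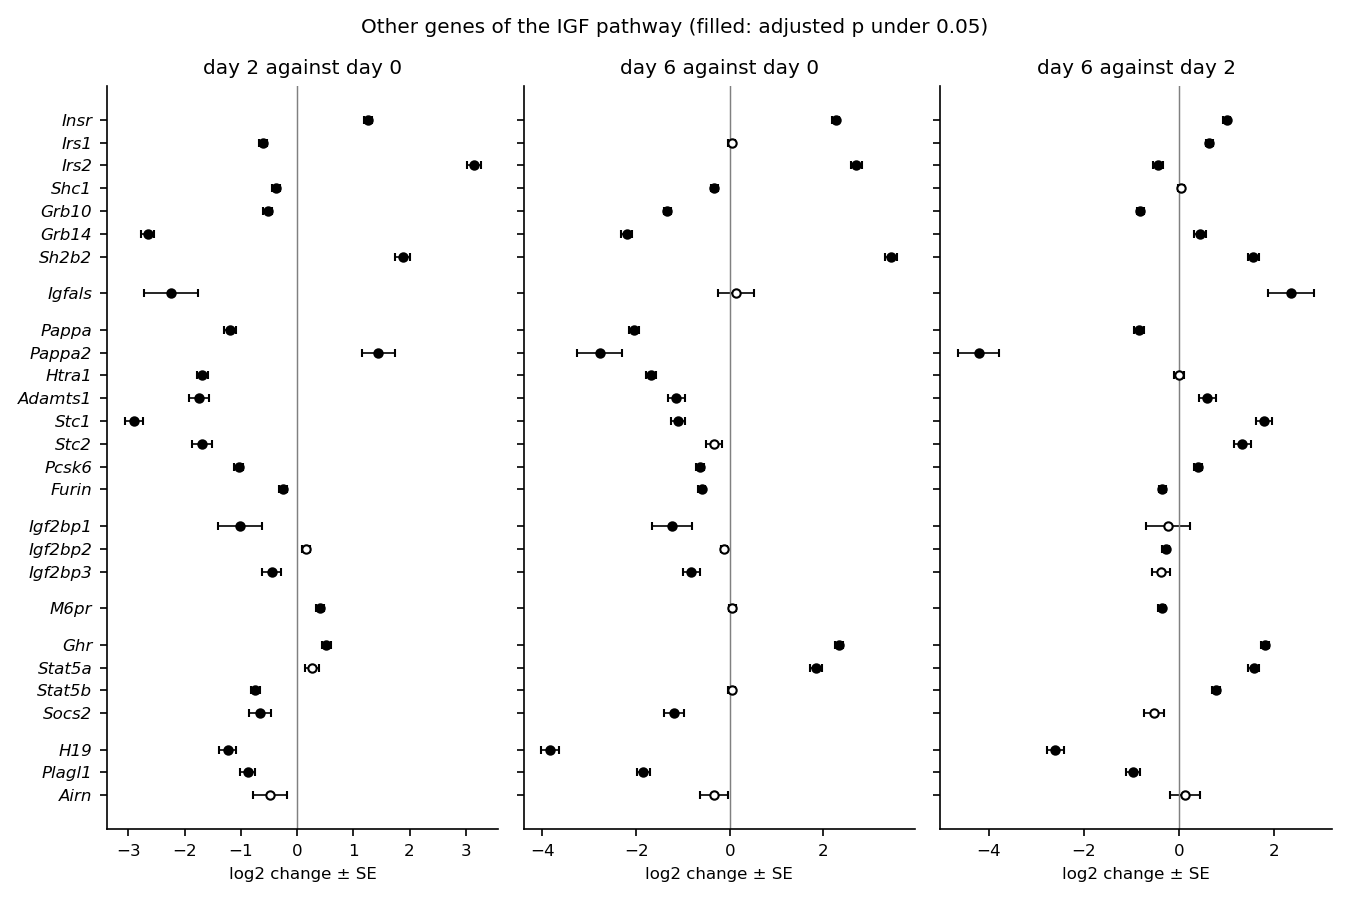
Log2 change (horizontal axes, with SE) of the tested pathway genes outside the family, all but 1, in the 3 comparisons, filled where the adjusted p was under 0.05. At day 6 against day 0, Sh2b2 and Irs2 lie farthest to the right and H19 and Pappa2 farthest to the left.

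Of the 7 receptor partners and adaptors, 3 were higher and 4 lower at day 2 against day 0. At day 6 against day 0, 3 were higher and 3 lower. Irs2, a docking protein for both receptors, had 12.2 ± 0.224 CPM at day 0, 108 ± 17.6 CPM at day 2 and 79.6 ± 0.404 CPM at day 6. It was 8.85-fold higher at day 2 than at day 0 (log2 change 3.15, SE 0.12, adjusted p = 4.79e-07). Sh2b2, an adaptor of the insulin receptor, had 11.7 ± 0.706 CPM at day 0, 42.9 ± 5.60 CPM at day 2 and 127 ± 16.1 CPM at day 6. It was 10.9-fold higher at day 6 than at day 0 (log2 change 3.45, SE 0.13, adjusted p = 1.4e-07). Irs1, another docking protein, had 53.0 ± 1.86 CPM at day 0, 34.8 ± 1.95 CPM at day 2 and 54.4 ± 2.06 CPM at day 6. It was lower at day 2 than at day 0 (log2 change -0.60, SE 0.07, adjusted p = 0.000145) and higher at day 6 than at day 2 (log2 change 0.64, SE 0.07, adjusted p = 0.000102), and 30.9% of its exonic length overlaps Gm9747 on the other strand.

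Adaptors that restrain both receptors were lower at both later days than at day 0. Grb10 had 359 ± 16.3 CPM at day 0, 249.8 ± 6.45 CPM at day 2 and 142 ± 5.96 CPM at day 6, and was 2.52-fold lower at day 6 than at day 0 (log2 change -1.33, SE 0.08, adjusted p = 1.57e-06). Grb14 had 51.0 ± 1.22 CPM at day 0, 8.08 ± 0.421 CPM at day 2 and 11.1 ± 1.83 CPM at day 6, and was 4.59-fold lower at day 6 than at day 0 (log2 change -2.20, SE 0.12, adjusted p = 8.94e-07). Shc1, which links receptors to Ras, was 1.26-fold lower at day 6 than at day 0 (257 ± 0.457 against 323 ± 7.20 CPM; log2 change -0.33, SE 0.07, adjusted p = 0.00304).

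Of the 8 proteases of binding proteins and their inhibitors, 7 were lower at day 2 against day 0 and 7 at day 6 against day 0. Among all genes tested, 33.6% and 35.1% were. At day 6 against day 2, 4 of the group were higher and 3 lower, beside 38.2% and 27.5% of all genes. Pappa, the protease that cleaves Igfbp4, had 147 and 124 CPM at day 0, 56.7 and 61.3 CPM at day 2 and 30.7 and 35.1 CPM at day 6. The days did not overlap, and each later day was lower, as for Igfbp4 itself. Pappa was 4.11-fold lower at day 6 than at day 0 (log2 change -2.04, SE 0.11, adjusted p = 8.94e-07). Stc1 and Stc2, secreted inhibitors of PAPP-A, were lowest at day 2. Stc1 had 26.9 ± 2.04 CPM at day 0, 3.58 ± 0.228 CPM at day 2 and 12.6 ± 2.54 CPM at day 6, and was 7.51-fold lower at day 2 than at day 0 and 3.50-fold higher at day 6 than at day 2. Stc2 had 13.4 ± 0.922 CPM at day 0, 4.17 ± 0.759 CPM at day 2 and 10.5 ± 1.94 CPM at day 6, and was 3.22-fold lower at day 2 than at day 0 and 2.54-fold higher at day 6 than at day 2. The serine protease Htra1 had 281 ± 26.5 CPM at day 0, 87.5 ± 1.87 CPM at day 2 and 87.7 ± 9.15 CPM at day 6, and was 3.21-fold lower at day 6 than at day 0. The metalloprotease Adamts1 had 421 ± 6.70 CPM at day 0, 126 ± 19.6 CPM at day 2 and 191 ± 52.8 CPM at day 6, and was 2.20-fold lower at day 6 than at day 0. Each of these folds had an adjusted p under 0.05. Pappa2, a relative of Pappa, was the exception at day 2, at low counts (4 and 6 in the day 6 libraries). It had 1.63 ± 0.554 CPM at day 0, 4.49 ± 1.02 CPM at day 2 and 0.239 ± 0.0852 CPM at day 6, and was 2.72-fold higher at day 2 than at day 0 (log2 change 1.44, SE 0.29, adjusted p = 0.00260) and 18.7-fold lower at day 6 than at day 2 (log2 change -4.22, SE 0.43, adjusted p = 4.56e-05).

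Of the 4 genes of the growth hormone axis, which drives Igf1 in liver and other tissues, 2 were higher and 1 lower at day 6 against day 0. Ghr, the growth hormone receptor, had 112 and 127 CPM at day 0, 172 and 171 CPM at day 2 and 602 and 605 CPM at day 6. It was 5.04-fold higher at day 6 than at day 0 (log2 change 2.33, SE 0.09, adjusted p = 1.4e-07), and its days did not overlap. Stat5a, a transcription factor of the axis, was 3.58-fold higher at day 6 than at day 0 (87.7 ± 11.1 against 24.5 ± 4.01 CPM; log2 change 1.84, SE 0.13, adjusted p = 3.91e-06). Stat5b, the related factor, had 49.8 ± 3.398 CPM at day 0, 29.7 ± 0.815 CPM at day 2 and 51.1 ± 2.22 CPM at day 6, and was lower at day 2 than at day 0 (log2 change -0.74, SE 0.08, adjusted p = 6.13e-05) and higher at day 6 than at day 2 (log2 change 0.78, SE 0.08, adjusted p = 4.54e-05). Socs2, a feedback inhibitor of the axis, was 2.28-fold lower at day 6 than at day 0 (18.3 ± 4.68 against 41.5 ± 8.51 CPM; log2 change -1.19, SE 0.21, adjusted p = 0.00110). Igf1 differed 1.25-fold between the same days.

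Of the 3 genes tested in the imprinted group of the list, H19 and Plagl1 were lower in all 3 comparisons. Airn was called in none (adjusted p = 0.187, 0.349 and 0.721). Grb10, an imprinted adaptor given above, was lower in all 3 as well, and Igf2 only in the comparisons with day 0. H19, a noncoding RNA from the maternal allele, lies 72622 bases from Igf2. It had 131 and 96.0 CPM at day 0, 53.2 and 43.4 CPM at day 2 and 7.55 and 8.37 CPM at day 6, and was 14.3-fold lower at day 6 than at day 0 (log2 change -3.84, SE 0.18, adjusted p = 5.19e-07). Plagl1, a transcription factor, had 26.1 ± 1.69 CPM at day 0, 14.2 ± 1.75 CPM at day 2 and 7.30 ± 1.17 CPM at day 6, and was 3.59-fold lower at day 6 than at day 0 (log2 change -1.85, SE 0.14, adjusted p = 7.7e-06). Of the 3 mRNA-binding proteins named for Igf2 mRNA, 2 were called lower at each later day than at day 0. Igf2bp3 had 13.01 ± 1.17 CPM at day 0, 9.52 ± 0.00903 CPM at day 2 and 7.38 ± 2.04 CPM at day 6, lower at day 6 than at day 0 (log2 change -0.83, SE 0.18, adjusted p = 0.00337) here and in all 12 alternatives. Its call at day 2 against day 0 (log2 change -0.45, SE 0.17, adjusted p = 0.0446) ended with RLE scaling (0.0559), library totals (0.135), DESeq2 (0.0880) and any library of those days left out (0.149 to 0.219). Igf2bp1, at low counts, had 1.72 ± 0.280 CPM at day 0, 0.846 ± 0.485 CPM at day 2 and 0.728 ± 0.0433 CPM at day 6. Its calls at day 2 (log2 change -1.02, SE 0.39, adjusted p = 0.0478; alternatives 0.00933 to 0.253) and day 6 (log2 change -1.24, SE 0.42, adjusted p = 0.0282; alternatives 0.00234 to 0.142) against day 0 each ended when replicate 76 or 77 of day 0 was left out. The day 2 call also ended without replicate 77 of day 2, by DESeq2 and under both other scalings, and the day 6 call without either library of day 6. Without replicate 76 of day 2, the log2 change at day 2 was -1.76, and without replicate 77 of day 2 it was -0.52.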

How the data were processed

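Per the submitters' processing notes, TopHat2 2.0.13 and HTSeq 0.9.1 were used, with builds mm10 and GRCm38. Neither counting mode, annotation nor strand setting is given in the sources used here. The deposited values are raw read counts per gene although their columns are named RPKM: they are whole numbers, with the 5 summary lines of HTSeq at the end. Those lines entered neither library sizes nor tests (2.62% to 3.23% of alignments in no feature, 4.40% to 4.91% ambiguous, 4.16% to 9.05% not unique). Reads carry no molecular identifiers, so floors cover counting error only.

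Genes were tested with edgeR 4.0.16 (R 4.3.3; quasi-likelihood F test, TMM, filterByExpr, which left 31349 genes untested). A single fit held all 6 libraries, with a mean per day and 3 residual degrees of freedom. P-values were adjusted by Benjamini-Hochberg over every tested gene, and the threshold was 0.05. The SE is the size of the log2 change divided by the square root of F. The fit was also run on simulated counts with the same spread for every gene and far fewer changed genes than were called here. That run could not check the scaling or the wider spread between the day 6 libraries. Coordinates and exon lengths are from GENCODE M21 (GRCm38). Among the members, Igf2, Igfbp4 (2.00%) and Igfbp7 (2.43%) shared 50-mers with other genes. Alternatives, which give the ranges of adjusted p in the text together with the value reported, were RLE scaling, library totals, no filter, DESeq2 1.42.0, the replicate number as a block, only the days compared, and each library left out. The longest transcript replaced the union of exons as an alternative for levels per length. The members and lists were chosen with earlier results of these data known, as were the pathway genes described by a value. Nearest profiles leave out predicted-gene symbols. A pathway gene, which stays in the list's counts, and a nearest profile of Igfbp5 are not reported here.

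Whether the numbers 76 and 77 pair libraries was checked from how same-numbered libraries deviated from their day's mean, gene by gene. Pearson's r was 0.109 (days 0 and 2), 0.112 (days 0 and 6) and 0.213 (days 2 and 6). Each passed 0.1, the mark used for pairing. Spearman's rho was 0.0589, 0.0546 and 0.176 for the same days, below that mark in both comparisons with day 0. The check therefore does not settle whether the numbers pair the libraries. The results given carry no pair term, and the fit with the number as a block is an alternative. No source used here says what they mark. Libraries of the same day differed beyond sampling noise (chi-square per degree of freedom 6.75, 7.53 and 26.3 at days 0, 2 and 6).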

Additional observations from a re-analysis of the deposited data

How the results depend on the processing

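Over 12 alternatives for each of 10 members in 3 comparisons, 322 of 360 log2 changes kept their direction and their side of the threshold, 25 lost the call, 11 gained it and 2 turned. The 2 that turned were of Igf1 at day 6 against day 2, which was not called and ranged from -0.15 to 0.011 over the fits that leave out 1 library. With library totals alone, 0 in place of 2 members were higher at day 6 against day 0. At day 6 against day 2, 1 in place of 3 members were then higher and 7 in place of 4 lower, and 14 in place of 9 pathway genes were lower. Leaving out 1 library, 1 to 2 members were higher at day 6 against day 0, and 6 to 9 members were lower at day 2 against day 0. With the longest transcript in place of all exons, Igfbp4 held 26.4% of the binding-protein sum at day 0 and 31.02% at day 2, Igfbp7 held 51.7% and 53.8%, and the ratio of Igf2 to Igf1 at day 0 was 0.210. The replicate block gained the Igfbp7 call at day 6 against day 2 (adjusted p = 0.0368) and changed no other call among the members or among the pathway changes given with a fold or log2 change. It moved the pathway genes lower at day 6 against day 2 to 10 in place of 9. Without replicate 77 of day 0, the median of all genes at day 2 against day 0 was 0.14 in place of 0.00, and at day 6 against day 2 it was -0.01 in place of 0.12. A fit that leaves out 1 library assumes that the lone library of that day varies like the others. With 2 libraries a day, the calls of Igf1r and Igf2r at day 2 against day 0 ended when any 1 library of those days was left out. Their log2 changes then ran from -0.50 to -0.23 and from -0.29 to -0.18, beside -0.43 and -0.27 with all libraries. Such a fit has fewer libraries, so a lost call does not show that the difference came from a single library.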
